A study of Mus musculus with 5 samples.

Results

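The genes described here encode splicing factors and RNA helicases. They were chosen by name: every gene whose single symbol in the platform annotation begins with Srsf, Sfrs, Hnrnp, Hnrp, Snrp, Sf3a, Sf3b, Prpf, Ddx or Dhx, or with Rbm followed by a digit. No measured value entered the rule, although it was set with earlier results of these data known. The rule found 110 genes of 9050 with a single symbol on the array, and 105 of them, of 8452 genes in all, had a value on all 5 arrays. They comprised 8 SR proteins, 19 hnRNP proteins and 10 Snrp proteins, which belong to small nuclear ribonucleoproteins. A further 7 were Sf3a and Sf3b factors of the U2 particle and 8 were Prp factors. The remainder were 19 DEAD-box helicases, 7 DEAH-box helicases and 27 RBM genes, 1 of which, Rbm3os, is a long non-coding RNA in RefSeq.

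Introns are removed by the spliceosome, which small nuclear ribonucleoproteins build on each transcript. SR proteins and hnRNP proteins bind the transcript and favour or oppose the use of nearby splice sites, Prp factors carry the tri-particle and the catalytic core, and DEAD-box and DEAH-box proteins are ATP-driven helicases that remodel RNA during splicing, export, translation and ribosome assembly. A macrophage activated by bacterial lipopolysaccharide (LPS) switches on a large programme of transcription, and some helicases of these families, among them Dhx58 (LGP2), act in the sensing of viral RNA.

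Macrophages were grown from the bone marrow of mice of the C3H/HeJ strain, which carries a loss-of-function mutation of the LPS receptor Tlr4 and is known for its weak response to LPS. They were differentiated in culture with human CSF-1 and then given LPS of S. minnesota at 10 µg/ml for 0.5, 2, 7 or 21 h, or left without it (0 h). The reference on every array was total RNA of whole C57BL6/J embryos at 17.5 days, so each ratio also sets one mouse strain against another. Each time point had 1 two-colour array and no replicate, the number and age of the mice were not given in the labels, and no difference could be tested.

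Values are centred log ratios, read as base 10, of macrophage against embryo. A size rule of 2-fold, 0.301 on this scale, takes the place of a test. The direction of the ratio is likely but not stated: the labels name the macrophage RNA in the first channel and the embryo RNA in the second, 7 of 9 measured macrophage genes (of 20 listed) lay above 0 at 0 h with a median of 0.57, and 0 of 23 measured genes of embryo tissues (of 24 listed) did, with a median of -0.84. Cd68 and Tyrobp, both macrophage genes, lay below 0 on average, at -0.19 and -0.17. Mean ratios over the 0, 2, 7 and 21 h arrays had a median of -0.12 for 3 T and NK cell genes (of 7 listed), -0.11 for 6 neutrophil genes (of 7), -0.68 for 6 fibroblast genes (of 6, of which Col1a1 and Col1a2 are also embryo genes here) and 0.099 for 4 genes of dividing cells (of 8), and the 1 measured B cell gene (of 4), Cd79b, stood at -0.63.

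The 0.5 h array stood apart. Its probe values had a correlation of 0.48 with those at 0 h, against 0.85, 0.84 and 0.75 for the 2, 7 and 21 h arrays, and its 74 globin probes with a value had a median of -0.19 against -1.52 at 0 h, although globin RNA belongs to the blood of the embryo reference. Averaged by gene over complete probes, Hbb-b1 read -1.17 at 0.5 h against -1.86 at 0 h and Hba-a1 -0.64 against -1.44. Mean ratios below therefore cover the 0, 2, 7 and 21 h arrays, and the 0.5 h values are given separately. Between 18724 and 19674 of 19828 probes had a value on an array.

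The promoters of 3 genes to which the results return are shown first: Ddx21, a nucleolar DEAD-box helicase of ribosome production with the lowest ratio of the 105 genes, Rbm34, an RNA-recognition-motif protein with the highest, and Ddx27, a DEAD-box helicase of ribosomal RNA maturation with the highest ratio among the helicases by its 1 complete probe (a second probe, without a value at 2 h, lay near the embryo). Each run is the 250 bases before the start of the gene, read 5′ to 3′ along the gene from RefSeq on GRCm38.p6. Capitals mark a match, on either strand, to any of 6 common promoter motifs, which are spelled out with their counts after the sequences. Ddx21 lies at chr10:62602299-62602548 on the minus strand, Rbm34 at chr8:126971050-126971299 on the minus strand and Ddx27 at chr2:167015063-167015312 on the plus strand.
Ddx21: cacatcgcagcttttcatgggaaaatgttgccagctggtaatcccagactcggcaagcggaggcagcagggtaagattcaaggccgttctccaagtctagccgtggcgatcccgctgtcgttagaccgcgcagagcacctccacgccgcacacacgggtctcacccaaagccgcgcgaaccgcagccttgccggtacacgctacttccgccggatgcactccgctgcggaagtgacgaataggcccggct
Rbm34: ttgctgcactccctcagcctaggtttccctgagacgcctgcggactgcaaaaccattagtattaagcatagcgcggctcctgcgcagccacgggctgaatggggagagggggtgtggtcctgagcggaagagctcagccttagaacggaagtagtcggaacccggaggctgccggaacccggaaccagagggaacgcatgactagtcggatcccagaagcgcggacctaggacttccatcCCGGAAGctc
Ddx27: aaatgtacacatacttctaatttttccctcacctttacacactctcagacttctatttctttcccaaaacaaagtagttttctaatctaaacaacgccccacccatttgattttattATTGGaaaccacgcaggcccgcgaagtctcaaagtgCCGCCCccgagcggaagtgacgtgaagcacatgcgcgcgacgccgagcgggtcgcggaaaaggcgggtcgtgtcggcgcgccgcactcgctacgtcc
The Ddx21 window held none of the 6 motifs, the Rbm34 window held 1 ETS core, and the Ddx27 window held 1 CCAAT box and 1 GC box. Only the exact letters given below were searched, so other spellings of these sites are neither marked nor counted. G and C made up 61.6%, 60.4% and 52% of the bases.

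RefSeq gave 123 promoters for 97 of the 110 genes, and both strands of each window were searched. The ETS core, searched as CCGGAAG, occurred in 27.6% of them, against 12.7% of the 8715 promoters of all measured genes and 6.91% of all 32851 promoters of the table. An NRF1 site, searched as GCATGCG, followed in the same order, at 8.94%, 4.87% and 3.02%. The CCAAT box, searched as those letters, stood at 47.2%, 35.3% and 33.8%. A GC box, searched as GGGCGG, was found in 56.9%, 52.7% and 32.7%. The E-box, searched as CACGTG, was found in 10.6%, 7.97% and 6.02%. The TATA box, searched as TATAAA, was found in 10.6%, 8.11% and 12.4%. These are counts of letters in a fixed window, none of these motifs holds another, and no binding was measured.

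Most of the genes stood close to the embryo. The median mean ratio was 0.041 for the 105 genes against 0.0077 for all genes, and 67 of 105 (63.8%) lay above 0 against 51.8% of all genes. On single arrays 62, 61, 56, 73 and 67 of the 105 lay above 0 at 0, 0.5, 2, 7 and 21 h, where the centring puts 4226 of all 8452 genes above it. The spread across genes was narrower than over the whole array, with a median absolute deviation of 0.079 against 0.13. On all 5 arrays 72 of 105 (68.6%) stayed within 2-fold of the embryo, against 3817 of 8452 (45.2%). More of these genes average at least 2 probes, 59 of 105 against 2968 of 8452, and the part of this in the spread was not tested. In RNA of a whole culture, fewer cells of a type and less RNA per cell cannot be told apart.

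By the mean ratio, 6 of the 105 genes (5.71%) were at least 2-fold above the embryo, where 9.34% of all genes were, and 3 (2.86%) were at least 2-fold below it, where 8.92% of all genes were. Rbm34, Rbm3os, Ddx27, Rbm19, Rbm10 and Rbm6 made up the first group and Ddx21, Ddx39b and Rbm14 the second. The mean joins arrays of different times, and not every array of these genes passed 2-fold. At 21 h Rbm34, Rbm3os, Ddx27 and Rbm19 read 0.0014, -0.028, 0.14 and 0.19, within 2-fold of the embryo. Rbm10 and Rbm6 read 0.34 and 0.47 there. The Ddx27 value rests on 1 probe, and the second probe of that gene read 0.13, -0.0063 and 0.068 at 0, 7 and 21 h, within 2-fold of the embryo. All 9 were RBM genes or DEAD-box helicases, and the 59 genes of the other 6 classes lay within 2-fold of the embryo by this mean.

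**Figure D1:**
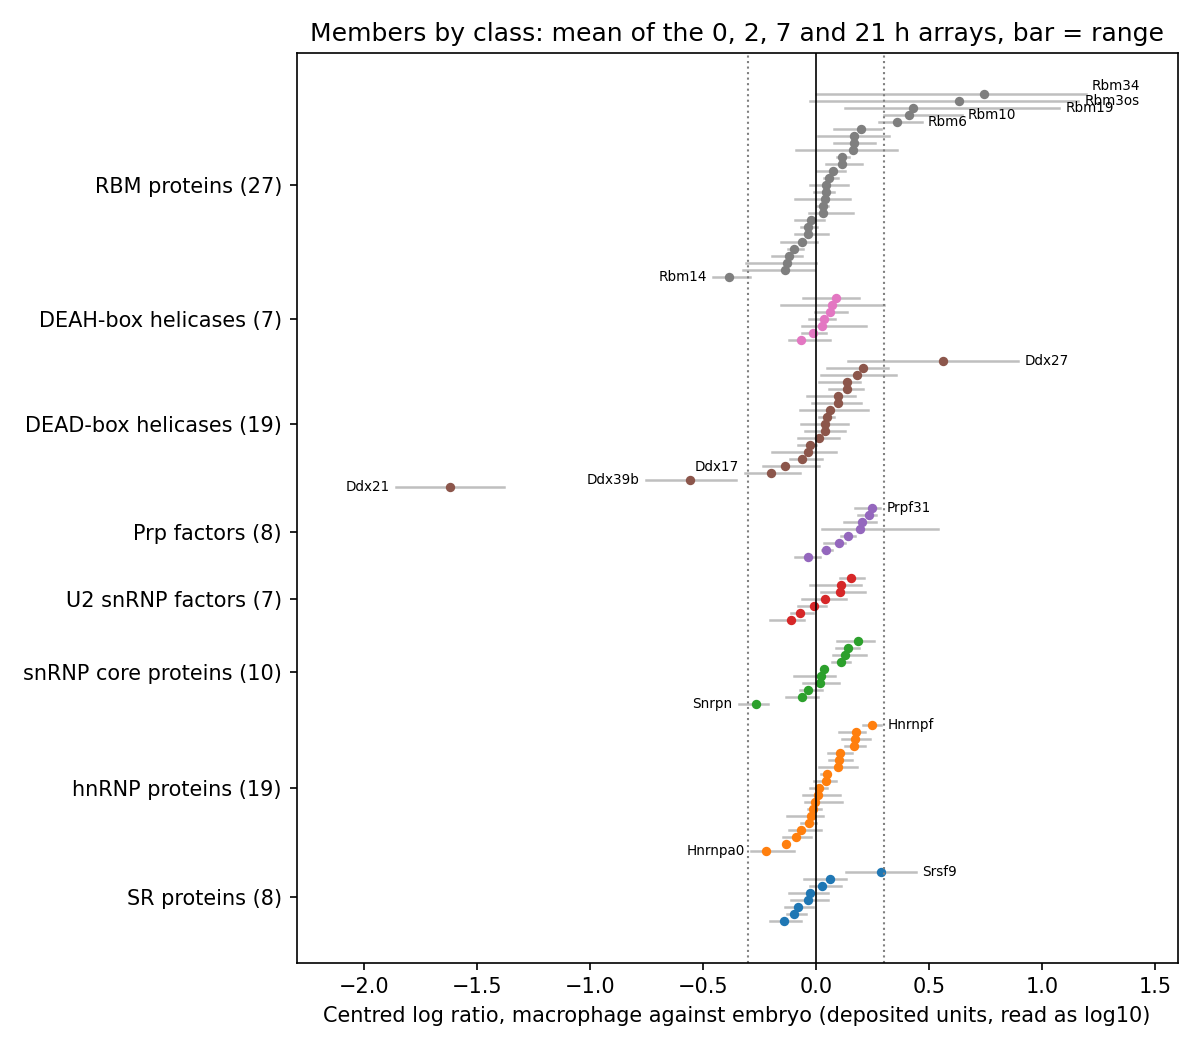
Each dot is the mean centred log ratio of 1 gene over the 0, 2, 7 and 21 h arrays, with a bar from its lowest to its highest array, ordered within the 8 classes (number of genes in brackets). The dotted lines mark 2-fold, and Ddx21 at -1.62 stands far to the left of all others.

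Ddx21 read -1.38, -1.69, -1.84, -1.41 and -1.86 on the 0, 0.5, 2, 7 and 21 h arrays. It was low on every array, with a mean of -1.62 ± 0.26 (SD over 4 arrays of different times, 1 probe), a level 41.9-fold lower than in the embryo if the logs are base 10 and 3.08-fold lower if they are base 2. It ranked 11 from the bottom of all 8452 genes.

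Ddx39b (UAP56), which loads the export machinery on spliced RNA, read -0.55, -0.70, -0.75, -0.57 and -0.36 at 0, 0.5, 2, 7 and 21 h. It too was low on every array, at a mean of -0.56 ± 0.16 (SD over 4 arrays, 1 probe). Its close relative Ddx39a, with 2 probes, averaged 0.046, and the difference between the 2 ratios lay between -0.77 and -0.44 on the 4 arrays. Ddx17, a coregulator of transcription and splicing, averaged -0.20 with 2 probes and was the next lowest helicase, while its partner Ddx5, with 4 probes, averaged 0.14. These pairs were picked after their values were seen, and near-identical stretches can bind the same cDNA.

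Ddx27, described with the time course, was the highest of the DEAD-box helicases at 0.56 from its 1 complete probe. Ddx41, a splicing-linked helicase also studied as a sensor of DNA, averaged 0.21, Ddx3x, a helicase of translation, 0.038, and Ddx1, of transfer RNA ligation, -0.14. The median of the 19 was 0.038 and 12 lay above 0. The 7 DEAH-box helicases spanned a small range, from -0.067 for Dhx40 to 0.087 for Dhx16, with Dhx15, the helicase that takes spent spliceosomes apart, at 0.025 and Dhx36, which unwinds G-quadruplexes, at 0.060.

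Of the spliceosome classes the Prp factors had the highest median, 0.17, with 7 of 8 genes above 0. Prpf31, which joins the U4/U6 particle to U5, read 0.28, 0.31, 0.25, 0.28 and 0.17 at 0, 0.5, 2, 7 and 21 h, above the embryo on every array (2 probes). Prpf18, a second-step factor, averaged 0.24, Prpf6, a bridge of the tri-particle, 0.20, and Prpf8, the core of the catalytic centre, 0.10. Prpf38b was the lowest, at -0.038.

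SR proteins had the lowest class median, -0.030, with 3 of 8 above 0. Srsf9 stood apart from the other 7 at 0.29, from 1 probe, and Srsf5 was lowest at -0.14, with all 4 of its probes below 0. Among the 19 hnRNP proteins the median was 0.011, with 11 above 0, from -0.22 for Hnrnpa0, a binder of AU-rich elements, to 0.25 for Hnrnpf, which binds G tracts. Hnrnpll, known for directing CD45 splicing in lymphocytes, averaged 0.0084.

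Core ribonucleoproteins had a median of 0.028 with 7 of 10 above 0. Snrpa1, a protein of the U2 particle, was highest at 0.19 and Snrpn, an Sm protein abundant in brain, lowest at -0.27. The Snrpn value joins 2 probes that differed, at -0.65 and 0.12. The 7 U2 factors had a median of 0.041, from -0.11 for Sf3b1, which clamps the branch site, to 0.15 for Sf3b2.

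At the high end, Rbm10 and Rbm6, both splicing regulators with an RNA-recognition motif, were not equally steady. Rbm6 read 0.28, 0.39, 0.30, 0.40 and 0.47 at 0, 0.5, 2, 7 and 21 h, high on every array, from 1 complete probe. A second Rbm6 probe, without a value at 2 h, read 0.31, 0.71, 0.56 and 0.061 at 0, 0.5, 7 and 21 h, near the embryo on the last. Rbm10 read 0.30, 0.0059, 0.37, 0.64 and 0.34 on the 5 arrays, near 0 at 0.5 h alone, from 1 probe.

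Probes of the same gene did not always agree. Of the 59 genes with at least 2 complete probes, 13 (22.0%) had probes whose mean ratios lay more than 2-fold apart, against 37.3% of the 2968 such genes of the array. The widest gap was in Rbm14, a coactivator found in paraspeckles, whose 3 probes averaged -1.61, -0.13 and 0.58, so its mean of -0.39 describes none of them. In Srsf2, an SR protein that binds exonic enhancers, 5 probes ran from -1.07 to 0.50. The low probe of each was not low on the 0.5 h array, at 0.24 for Rbm14 and 0.85 for Srsf2, while the low probe of Snrpn read -1.04 there.

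**Figure D2:**
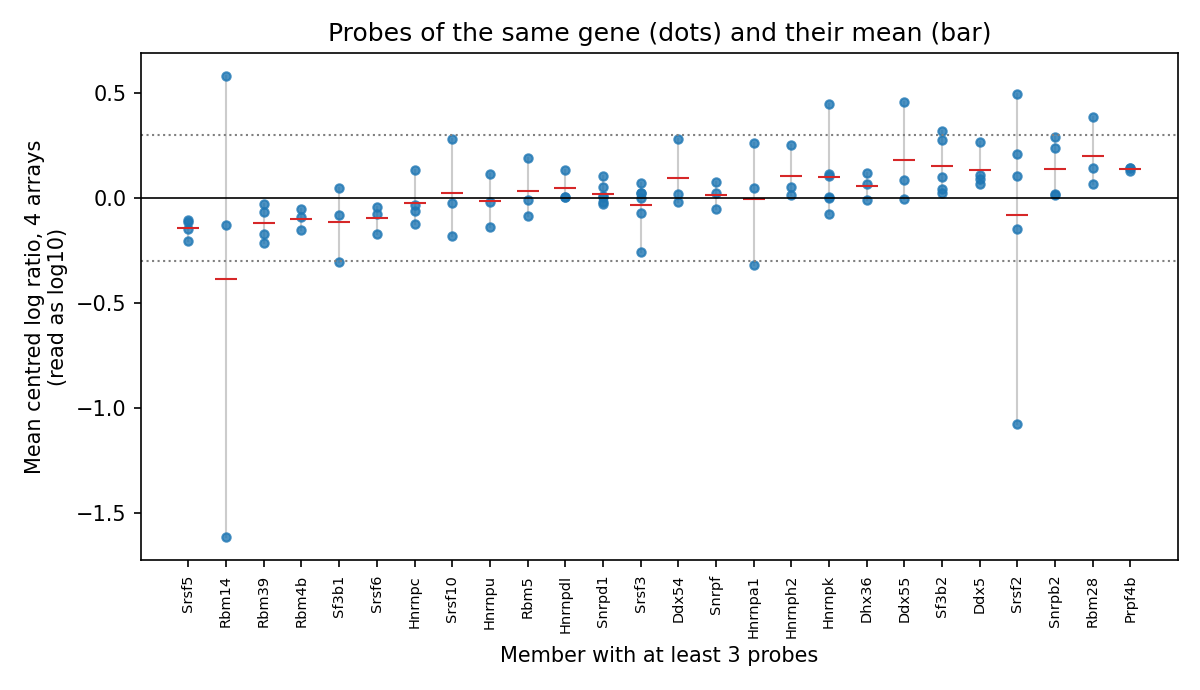
Dots are the mean centred log ratios of single probes over the 0, 2, 7 and 21 h arrays, for genes with at least 3 complete probes, and red bars are their means. Most genes have probes within 2-fold (dotted lines) of the embryo, and Rbm14 and Srsf2 each have 1 probe far below.

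After LPS the genes as a group stayed close to their 0 h values. The median of their differences lay at -0.0035, -0.0058, 0.035 and -0.0078 on the 0.5, 2, 7 and 21 h arrays, against -0.014, -0.012, 0.022 and 0.0030 for all genes. Over the 2, 7 and 21 h arrays 8 of 105 (7.62%) passed 2-fold at least once, against 16.2% of all genes, and 39 (37.1%) stayed under 1.25-fold at all of these times, against 23.3%. Of the 59 genes with at least 2 probes 1 passed (1.69%), against 7.55% of such genes on the array, and of the 46 with 1 probe 7 did (15.2%), against 20.9%.

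At 2 h 5 genes (4.76%) were at least 2-fold higher than at 0 h, where 4.24% of all genes were, and 2 (1.90%) were lower, where 2.58% were. At 7 h 3 (2.86%) were higher against 3.35% of all genes, and 0 were lower against 1.4%. At 21 h 0 were higher against 4.33%, and 4 (3.81%) were lower against 4.69%. These shares lie near or below the background at each time. Of the 14 differences counted here, 8 still passed after quantile normalization of the arrays, 7 after removal of a loess trend, and 0 if the logs are base 2. The loess trend is that of the difference on the mean of the log ratios compared, not on spot intensity. It can therefore also take out differences of genes with extreme ratios. The genes nearest the limit were Rbm12b2 (-0.31, inside) and Rbm48 (0.27, outside) at 2 h, Rbm3os (0.33) and Ddx51 (0.30) at 7 h, and Ddx27 (-0.39) and Ddx42 (0.28) at 21 h.

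**Figure D3:**
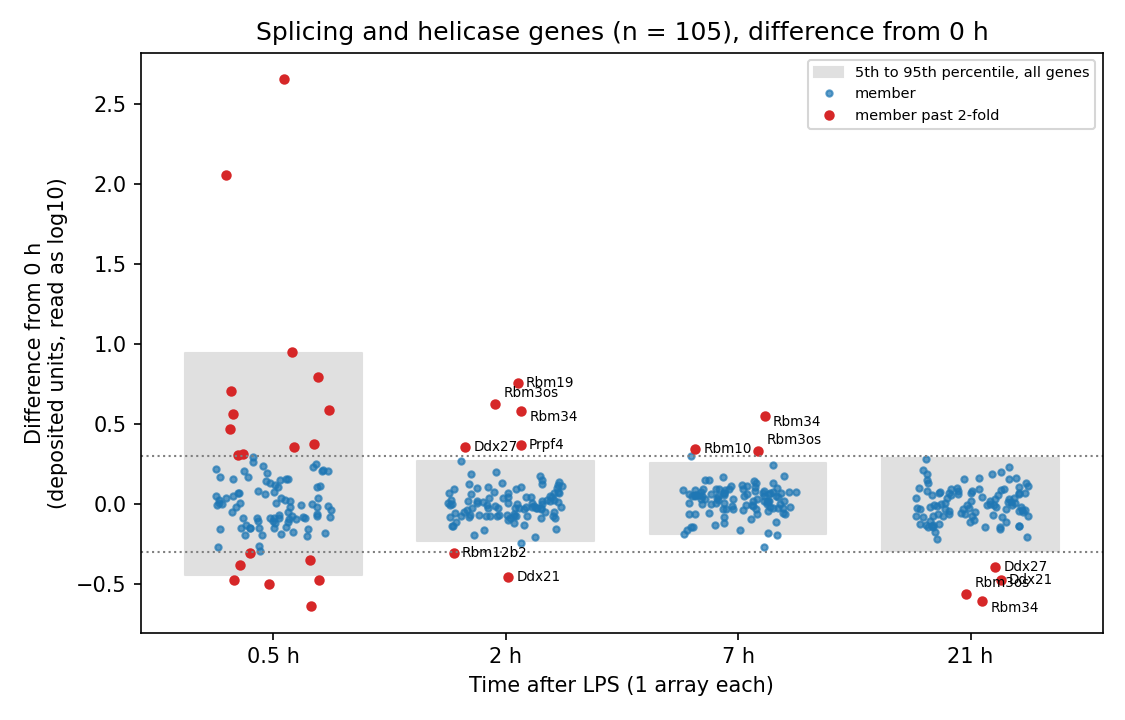
Each dot is the difference of 1 of 105 genes from the 0 h array, with genes past 2-fold in red and the grey boxes spanning the 5th to the 95th percentile of all 8452 genes. At 2, 7 and 21 h most dots lie inside the box, and Rbm34 and Rbm3os lie outside it at all of these times.

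Rbm34, whose protein is nucleolar and little studied, passed the limit at all of these times. Its probe values were 0.59, 2.80, 1.28, 1.14 and -0.016 for one probe and 0.63, 2.53, 1.11, 1.18 and 0.019 for the other at 0, 0.5, 2, 7 and 21 h. Both probes were above the embryo up to 7 h and level with it at 21 h. Against 0 h the gene was higher by 0.58 ± 0.15 (SD of 2 probes) at 2 h and by 0.55 at 7 h, and lower by 0.61 at 21 h, at which time both probes differed from 0 h by -0.61. After quantile normalization the 2 h difference was 0.29 and after removal of a loess trend 0.30, both just under the limit, while the 7 and 21 h differences passed under both. Of the 59 genes with at least 2 probes it was the 1 gene with every probe past 2-fold in the same direction, at each of these times. Over the whole array, such genes numbered 7 higher and 8 lower at 2 h, 8 higher and 0 lower at 7 h, and 9 higher and 10 lower at 21 h, of 2968 genes with at least 2 probes.

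Rbm3os, a non-coding gene that neighbours and overlaps Rbm3 in RefSeq, read 0.53, 0.36, 1.16, 0.87 and -0.028 at 0, 0.5, 2, 7 and 21 h. It was higher at 2 and 7 h, by 0.63 and 0.33, and lower at 21 h, by 0.56 (difference of -0.56, 1 probe). The 7 h difference was 0.18 after quantile normalization and 0.15 after removal of a loess trend, under the limit. Rbm3 itself, which encodes a cold-inducible RNA-binding protein, differed from 0 h by 0.13, 0.071 and -0.027 at these times with 2 probes. The strand that the probe reads is not given in the sources used here, so RNA of the 2 genes cannot be told apart where they overlap.

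Ddx27 read 0.54, -0.10, 0.89, 0.67 and 0.14 at 0, 0.5, 2, 7 and 21 h. It was higher at 2 h by 0.36 and stood at -0.39 from its 0 h value at 21 h. A second Ddx27 probe, without a value at 2 h and so outside these counts, read 0.13, 0.17, -0.0063 and 0.068 at 0, 0.5, 7 and 21 h. That probe differed from 0 h by -0.065 at 21 h, so the 2 probes of the gene did not give the same size. The 2 h difference of the first probe was 0.15 after quantile normalization, and its 21 h difference was -0.22 once a running median over 400 probe numbers was removed.

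Rbm19, a nucleolar protein of ribosomal RNA processing, read 0.32, 2.98, 1.08, 0.13 and 0.19, and Prpf4, a protein of the U4/U6 particle, 0.17, 0.42, 0.54, 0.040 and 0.026. Both were highest on the 0.5 h and 2 h arrays and below their 0 h value on the later ones. At 2 h the differences from 0 h were 0.75 for Rbm19 and 0.37 for Prpf4, with 1 probe each. Rbm19 passed the limit at 2 h under the quantile, median-absolute-deviation, loess and running-median settings, at 0.55 to 0.73, and Prpf4 fell short under the loess setting, at 0.29.

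Ddx21 was the lowest of the 105 genes at 2 h, at a difference of -0.46, while at 7 h it differed from 0 h by -0.026 and at 21 h by -0.48. It was thus lower on 2 arrays and level on 1 between them. The 2 h difference was -0.074 after quantile normalization, -0.090 after scaling each array to one median absolute deviation and -0.15 after removal of a loess trend, and the 21 h difference passed under all of these. Rbm12b2, an RNA-recognition-motif gene, read 0.0014 at 0 h and -0.31 at 2 h, for a difference of -0.31. That difference missed the limit under quantile normalization (-0.28), the loess setting (-0.27) and the running median (-0.23). Rbm10 passed the limit at 7 h alone among these times, at 0.34 above its 0 h value, and missed it after quantile normalization (0.29) and removal of a loess trend (0.22).

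**Figure D4:**
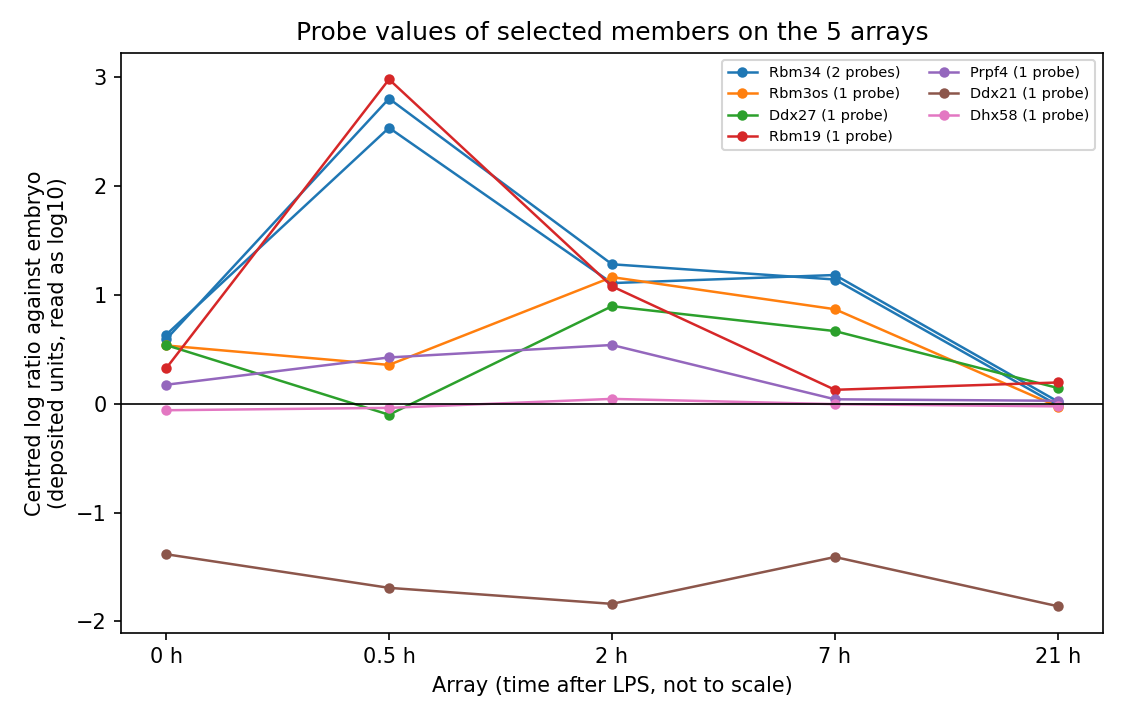
Lines join the centred log ratios of single probes on the arrays at 0, 0.5, 2, 7 and 21 h (spacing not to scale) for 7 genes. Both Rbm34 probes and Rbm19 peak on the 0.5 h array, Rbm3os and Ddx27 on the 2 h array, and Dhx58 stays near 0.

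Among SR proteins, hnRNP proteins, Snrp proteins, U2 factors and DEAH-box helicases, 0 of 51 passed 2-fold from 0 h at 2, 7 or 21 h. The share was 16.2% of all genes and 7.55% of those with at least 2 probes. These classes were pooled after their values were seen, because none of their genes passed, so the 0 was fixed by that choice. It covers genes with a value on all 5 arrays. Dhx35, a DEAH-box gene without a 0.5 h value, differed from 0 h by 0.83 at 2 h and 0.48 at 21 h. Dhx58 (LGP2), a regulator of antiviral RNA sensing known as an interferon-induced gene, read -0.061, -0.039, 0.043, -0.0049 and -0.025 at 0, 0.5, 2, 7 and 21 h. Its largest difference from 0 h among the 4 later arrays was 0.10, at 2 h, from 1 probe. At 7 h the lowest values were those of Dhx34, a helicase of nonsense-mediated decay, at -0.27, and Rbm19, at -0.20. At 21 h the highest were Ddx42 at 0.28 and Ddx1 at 0.23, neither past the limit.

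The 0.5 h array gave more large differences, as it did everywhere. On it 12 of the 105 genes (11.4%) were at least 2-fold higher than at 0 h, where 19.9% of all genes were, and 7 (6.67%) were lower, where 10.6% were. Rbm19 at 2.65, Rbm34 at 2.06 ± 0.22 (SD of 2 probes), Rbm43 at 0.95, Hnrnpr at 0.79, Rbm48 at 0.71 and Rbm18 at 0.59 ± 0.76 (SD of 2 probes) led the first group. Ddx27 at -0.64, Hnrnpa0 at -0.50 ± 0.86 (SD of 2 probes), Dhx34 and Ddx10 at -0.48, Dhx16 at -0.38 and Rbm15b at -0.35 led the second. Of 13 named differences past 2-fold on this array, 10 still passed after quantile normalization and 5 after removal of a loess trend, under which 9 of 13 kept their direction. Under that loess setting Rbm34 turned to -0.62, Rbm19 to -0.040 and Hnrnpr to -0.047. Probes of 1 gene lay further apart on this array, with a pooled SD of 0.40 for the differences of these genes against 0.12, 0.12 and 0.17 at 2, 7 and 21 h. The limit fell between Sf3a1 (0.31) and Rbm10 (-0.30).

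Differences of Rbm34 came with differences of probes that have nearby numbers in the table. What the numbers stand for is not given in the sources used here. The 2 Rbm34 probes have consecutive numbers, 8446 and 8447. Of the probes within 50 numbers of the first, 21.4% were at least 2-fold higher at 2 h (6.31% of all probes), 32.6% were higher at 7 h (4.45%) and 24.7% were lower at 21 h (7.95%). On the 0.5 h array 44.3% of these neighbours were higher, against 19.9% of all probes. The full sequence of higher at 2 h, higher at 7 h and lower at 21 h, which both Rbm34 probes have, occurred in 11 of 94 neighbours (11.7%) and in 108 of 19054 probes overall (0.567%). The part of this in the Rbm34 result was not tested, and its 2 probes lie side by side in the table.

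For Rbm3os, at probe 17016, none of 98 neighbours had the full sequence, 0 of 100 were higher at 2 h and 3 of 100 at 7 h, while 15.3% were lower at 21 h against 7.95% of all probes. For Ddx27, at probe 15327, 33.0% of neighbours were lower at 21 h, against 5.10% around its second probe, number 13980, which differed from 0 h by -0.065. The part of the neighbours in the Ddx27 result was not tested. For Ddx21, at probe 13101, 5 of 98 were lower at 2 h and 6 of 98 at 21 h, near the 4.01% and 7.95% of all probes. For Rbm19, at probe 2524, 34.8% of neighbours were higher at 0.5 h against 19.9% of all probes, and 5 of 98 were higher at 2 h. One of those 5 is a probe of Dhx35, 9 numbers away, with a difference of 0.83. The window was chosen after the values were seen.

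**Figure D5:**
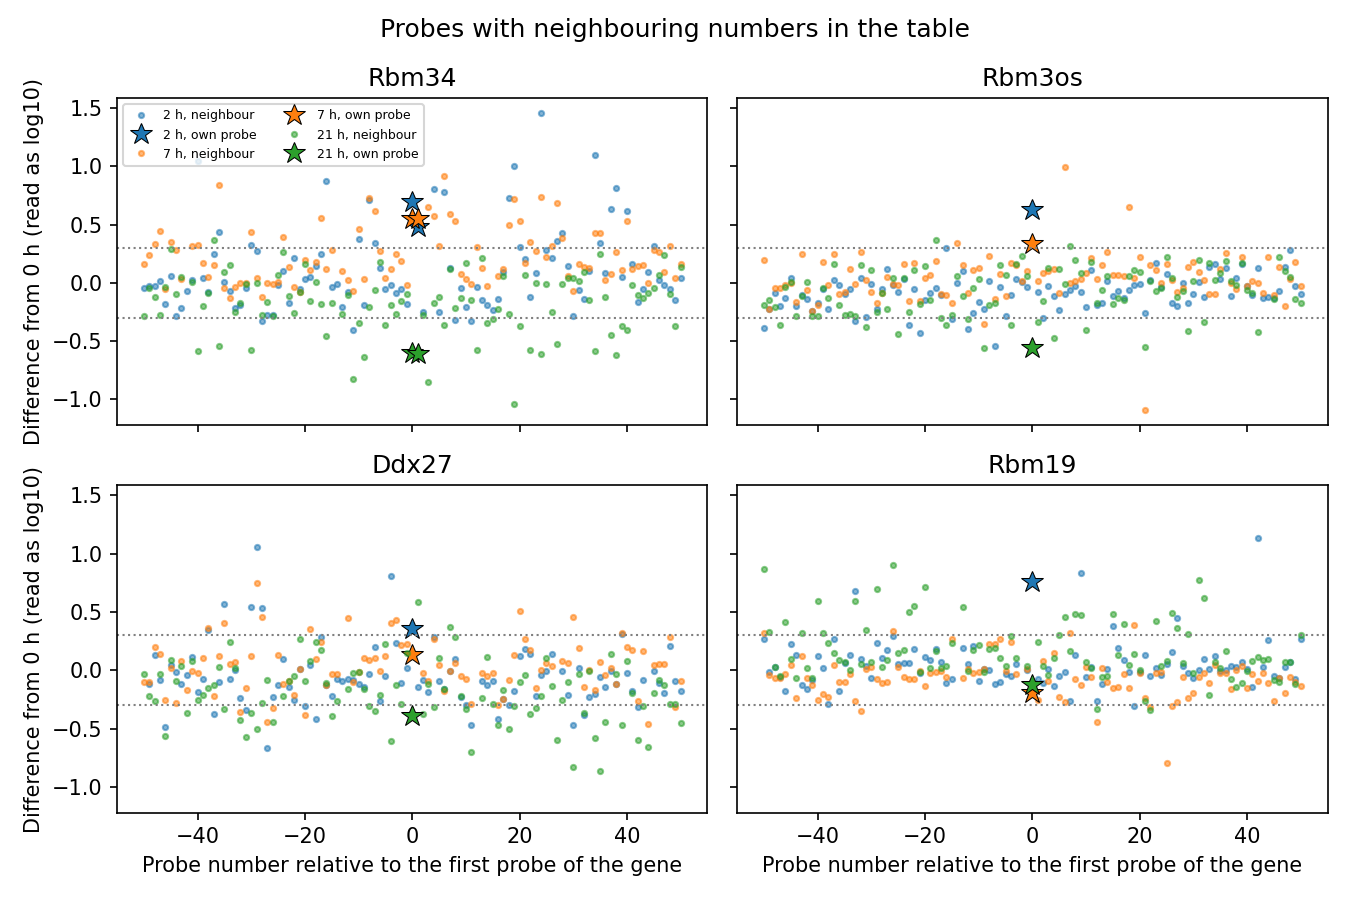
Differences from 0 h at 2, 7 and 21 h are plotted against probe number relative to the first probe of each gene, with the gene's own probes as stars and dotted lines at 2-fold. Around Rbm34, 32.6% of neighbours are also higher at 7 h and 24.7% lower at 21 h, and around Rbm3os 3 of 100 are higher at 7 h and 15.3% lower at 21 h.

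The 5 genes without a value on every array are outside the counts above. Dhx35, a helicase of the spliceosome, read 0.21, 1.04, 0.075 and 0.68 on the 0, 2, 7 and 21 h arrays. Ddx50, a nucleolar relative of Ddx21, read 0.14, -0.34, 0.53 and -0.13 at the same times, swinging in both directions. Dhx35, Ddx50 and Srsf1 lack only a 0.5 h value. Dhx35 and Ddx50 were past 2-fold from 0 h at 2 h, at 0.83 and -0.48. Dhx35 passed again at 21 h, at 0.48, and Ddx50 at 7 h, at 0.39. Srsf1 did not pass, at 0.023, 0.0097 and 0.26 from 0 h at 2, 7 and 21 h. Ddx47, a nucleolar helicase, had no value at 0 h and lay between -0.47 and 0.11 on the other arrays. Snrpd3, an Sm protein, lay between -0.17 and -0.023 where it had a value. Srsf1, the founding SR protein, read -0.034 at 0 h and 0.22 at 21 h.

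Splicing genes outside the naming rule were followed with a separate list, of which 77 of 104 were measured. Their median mean ratio was 0.030, beside 0.041 for the named families and 0.0077 for all genes. By the mean ratio 5 (6.49%) were at least 2-fold above the embryo and 3 (3.90%) below, against 9.34% and 8.92% of all genes. The share within 2-fold of the embryo on all 5 arrays was 53.2%, between the 68.6% of the named families and the 45.2% of all genes. Plrg1, a partner of Cdc5l in the spliceosome, was highest at 0.46, followed by Mbnl1, a splicing regulator, at 0.42 and Ppie, a spliceosomal cyclophilin, at 0.41. Srpk2, a kinase of SR proteins, was lowest at -0.42, followed by Smndc1 at -0.34 and Ptbp2, the neuronal polypyrimidine-tract protein, at -0.33.

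Against 0 h the list had 1 gene higher (1.30%, against 4.24% of all genes) and 0 lower (against 2.58%) at 2 h. At 7 h it had 0 higher (against 3.35%) and 1 lower (1.30% against 1.4%). At 21 h it had 1 higher (1.30% against 4.33%) and 2 lower (2.60% against 4.69%), and on the 0.5 h array 12 higher (15.6% against 19.9%) and 7 lower (9.09% against 10.6%). Gemin2, of the complex that assembles Sm rings, was the gene at 2 h, at 0.80. Gemin4 stood at -0.32 at 7 h, and Mfap1a at 0.32, Alyref, an export adaptor, at -0.53 and Mbnl2 at -0.44 at 21 h. Each of these 5 rests on 1 probe.

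Helicases outside the rule were few, with 7 of 18 measured. Mov10, an antiviral helicase, averaged 0.41 and Skiv2l, of the cytoplasmic exosome, 0.42, both above the embryo on every array. The 2 isoforms of the translation initiation helicase lay on opposite sides, Eif4a1 at 0.28 with 5 probes and Eif4a2 at -0.23 with 2. Against 0 h, Ythdc2 was higher by 0.41 at 7 h, and Dicer1, which cuts microRNA precursors, stood at -0.36 at 7 h and 0.31 at 21 h.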

How the data were processed

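Total RNA was labelled by an indirect amino-allyl method, per the labels' protocols. The values are the deposited log ratios of 5 two-colour arrays, read as log10: their base, direction and centring are not stated. How the authors scanned, background-corrected and normalized the arrays is not given in the sources used here. Base 10 was read from the size of the globin ratios, and the direction from the channel order and from marker genes. The deposited medians lay at 0.042, 0.075, 0.050, 0.0013 and 0.035 at 0, 0.5, 2, 7 and 21 h.

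With Python 3.11.15, pandas 2.3.3 and numpy 2.4.6, probes with 1 symbol in the platform annotation (14759 of 19828, with 170 holding several and 4899 none) were kept and symbols were updated through Entrez IDs (14628 matched in RefSeq, GRCm38.p6). All 223 member probes matched. 4 probes that pair a member with another symbol were left out. Genes with a value on all 5 arrays were kept, their complete probes averaged, each array centred on its median over genes, and the 0 h array subtracted. A difference of 2-fold (0.301) was counted, with no test, because each time has 1 array. Loess trends of the difference on the mean of the log ratios compared, not on spot intensity, used statsmodels 0.14.6.

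Members, classes, lists, pairs, motifs and the window of probe numbers were chosen with earlier results of these data known. Genes were named by rule: every member past 2-fold at 2, 7 and 21 h (or the 2 outermost), the 6 outermost a direction at 0.5 h and by mean ratio, class extremes, Ddx21, Rbm34 and Dhx58. Further genes, given as examples of their class, were picked after their values were seen. Requiring a digit after every prefix leaves 80 of the 110 genes. Protein sequence features were not analysed here. The calculations were tested on simulated data.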

Additional observations from a re-analysis of the deposited data

Results flagged for a closer look

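The 3 genes that moved in opposite directions, higher by 2-fold at 2 h and lower by 2-fold at 21 h, are listed for a closer look. The value at 21 h minus that at 2 h was -0.75 for Ddx27, -1.19 for Rbm34 and -1.19 for Rbm3os. With 1 array at each time the difference between times was not tested. The share of all genes with both calls is not given here, so the count is not a result about these families. A second Ddx27 probe, without a value at 2 h, differed from 0 h by -0.065 at 21 h. The first Ddx27 probe missed the limit at 2 h after quantile normalization and at 21 h with the running median removed.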

How the results depend on the processing

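No paired analysis was possible because each time has 1 array. Counts are of members at least 2-fold higher or lower than at 0 h, unless another fold or baseline is named. The shares of all genes under these settings are not given here. The counts therefore show how calls move with the setting and are not a result about the members. Of 14 named differences past 2-fold at 2, 7 and 21 h, 14 passed without centring and with the median probe, 12 with arrays scaled to one median absolute deviation, 12 with a running median over 400 probe numbers removed, 8 under quantile normalization and 7 with a loess trend removed, and the direction was kept in all 14 under these settings. With base 2 logs 0 of 14 passed. The lists that follow give only some of the counts under each setting. A count left out is not to be read as 0. Under quantile normalization the counts included 7 higher at 0.5 h, 3 higher and 0 lower at 2 h, 2 lower at 7 h and 1 higher at 21 h, and Ddx21 at 0.5 h turned to 0.0852. With one median absolute deviation the counts included 1 lower at 2 h, 1 lower at 7 h and 1 higher at 21 h, and Ddx21 at 0.5 h was 0.56. With the loess trend removed the counts included 3 higher at 0.5 h, 2 higher and 0 lower at 2 h and 1 higher at 7 h, and at 0.5 h Ddx21 was 0.161, Hnrnpr -0.0470, Rbm19 -0.0396 and Rbm34 -0.62. With the running median removed 1 was lower at 2 h and 1 higher at 21 h. With the probe of highest ratio 19 were higher and 11 lower at 0.5 h, 6 higher and 2 lower at 7 h and 9 lower at 21 h, Hnrnpa0 at 0.5 h was 0.0876 and Rbm14 averaged 0.55. Without requiring a 0.5 h value, which keeps 108 members, 5 were higher at 7 h and 1 at 21 h. The counts at 2 h rise as well, because this adds Dhx35, at 0.83 from 0 h, and Ddx50, at -0.48. Against the 0.5 h array 8 were higher and 13 lower at 2 h, 9 and 11 at 7 h and 7 and 18 at 21 h, with Rbm19 at -1.90 and Rbm34 at -1.47 at 2 h, Rbm34 at -1.51 at 7 h and Ddx27 at 0.25 at 21 h. With base 2 logs 2 were higher and 0 lower at 0.5 h, 0 and 0 at 2 h, 0 higher at 7 h and 0 lower at 21 h. With a 1.5-fold rule 23 were higher and 16 lower at 0.5 h, 8 and 5 at 2 h, 5 and 4 at 7 h and 6 and 7 at 21 h. The cause of these shifts was not tested beyond what each setting does by construction. Without Rbm3os, a choice added after seeing the data, 4 were higher at 2 h, 2 higher at 7 h and 3 lower at 21 h. The number of arrays limits the precision, and signal over background is unknown here.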
